A study of Mus musculus with 15 samples.

Results

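The mouse collagen genes were followed in RNA from primary mouse hepatocytes, the parenchymal cells of the liver. Every gene whose Ensembl ID maps to a symbol of the form Col, number, a, number was taken, which gave 44 genes of the 56953 listed. They comprise 11 fibrillar collagens, 6 chains of type IV, the collagen of basement membranes, 6 chains of type VI and 21 other collagens. The 15 libraries fall into 4 groups that cross genotype with treatment. ΔEGFR mice given carbon tetrachloride (CCl4) gave 4 libraries and wild-type (WT) mice given CCl4 gave 3. ΔEGFR mice given mineral oil and WT mice given mineral oil gave 4 each. ΔEGFR is a transgene whose name points to the receptor of epidermal growth factor. The study's title names that receptor's pathway and the fibrotic niche of the liver, and mineral oil is the carrier in which CCl4 is given. The labels give neither the promoter that drives the transgene nor strain, age, sex, dose or length of treatment. They do not say which libraries share an animal or a preparation either, so the p-values below reflect how far libraries of a group differ, which may in part be technical.

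Collagens are secreted or membrane-bound proteins whose chains wind around each other into a helix. Fibrillar collagens pack into the cables that give scar tissue its strength, type IV forms the sheet-like network of basement membranes, and type VI forms beaded filaments between fibrils and cells. In the injured liver, stellate cells and portal fibroblasts that turn into myofibroblasts are the known makers of fibrillar collagen, while hepatocytes are a known source of type XVIII collagen, a basement membrane protein that carries the angiogenesis inhibitor endostatin at its end. CCl4 injures the hepatocytes that metabolise it, and long exposure leads to fibrosis.

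Levels are given in TPM, transcript abundance scaled for length and library size, which can be compared between genes. Differences are log2 fold changes ± standard error from edgeR's quasi-likelihood test on the expected counts, and a gene was called where its Benjamini-Hochberg adjusted p over all 17975 tested genes was under 0.05. The test itself gives no standard error. It was derived as the absolute log2 fold change divided by the square root of the test's F statistic. Of the 44 collagens 35 passed the filter on low counts. The 9 that did not pass are Col2a1, Col8a2, Col9a1, Col9a2, Col10a1, Col11a1, Col19a1, Col26a1 and Col28a1, of which none exceeded 0.05 TPM in any library. Col10a1, a collagen of growth plate cartilage, and Col26a1 had no count in any library. Total counts ran from 51.73 to 155.39 M (mega) per library. Hepatocyte markers were present throughout, with albumin (Alb) at 22200 to 71900 TPM and transthyretin (Ttr) at 3270 to 8280 TPM. Markers of other liver cells were present too, and their values stand beside the results below.

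A single gene, Col18a1, held most of the collagen message in 14 of the 15 libraries, and CCl4 libraries differed from mineral oil libraries in how much the other collagens added to it. Col18a1 stood at 248, 306, 304 and 307 TPM in ΔEGFR CCl4 libraries, against 263, 397, 330 and 403 TPM in ΔEGFR mineral oil libraries. In WT mice it stood at 383, 253 and 240 TPM after CCl4, against 236, 379, 496 and 575 TPM after mineral oil. The groups overlap on this scale in both genotypes. On counts scaled to library size with TMM factors, every ΔEGFR CCl4 library lay below every ΔEGFR mineral oil library, while the WT groups overlapped. Col18a1 made up 43.3% to 73.7% of the summed collagen TPM in ΔEGFR CCl4 libraries and 54.4% to 70.5% in WT CCl4 libraries, against 82.2% to 91.5% in ΔEGFR mineral oil libraries and 76.0% to 92.3% in WT mineral oil libraries. In each genotype its share was thus lower in every CCl4 library than in any mineral oil library. The 43 other collagens together reached 108 to 400 TPM in ΔEGFR CCl4 libraries, against 37.6 to 77.4 TPM in ΔEGFR mineral oil libraries. In WT mice they reached 106 to 321 TPM after CCl4, against 40.5 to 74.7 TPM after mineral oil.

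**Figure D1:**
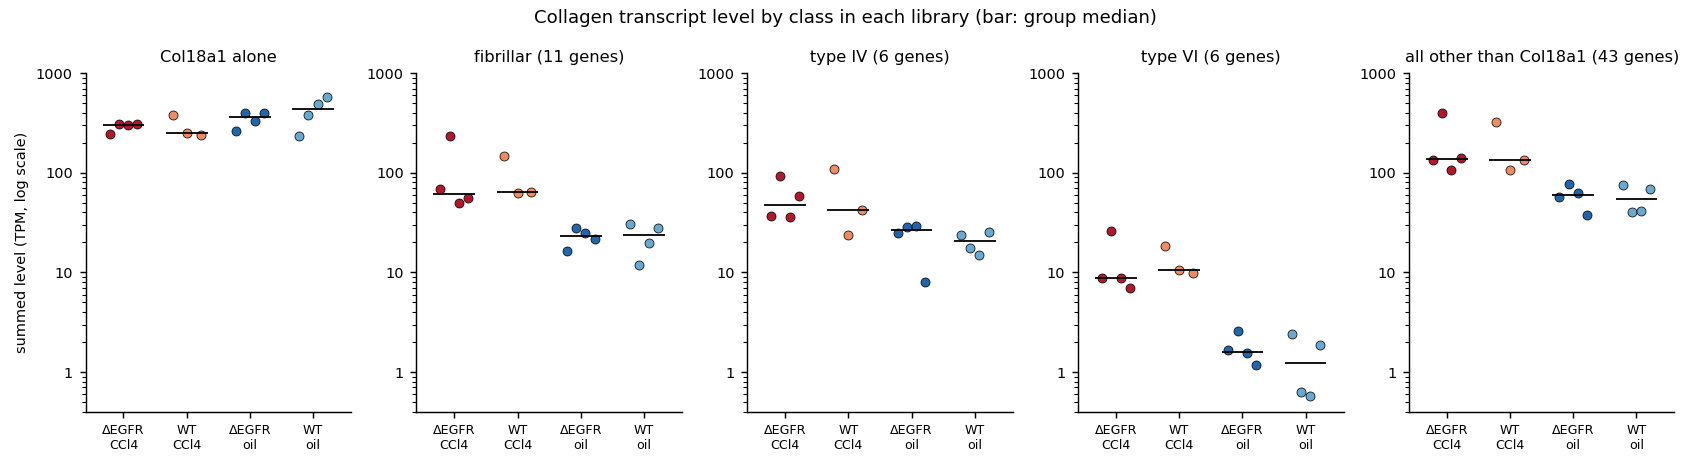
Summed TPM (log scale) of Col18a1, the fibrillar, type IV and type VI collagens, and all 43 collagens other than Col18a1, with 1 point per library and a bar at the group median. Col18a1 lies between 236 and 575 TPM in all 15 libraries, while the type VI sum is 6.94 to 26 TPM in CCl4 libraries and 0.58 to 2.6 TPM in mineral oil libraries.

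Fibrillar collagens summed to 102 ± 88.3 TPM in ΔEGFR CCl4 libraries (SD, n = 4), against 22.6 ± 4.82 TPM in ΔEGFR mineral oil libraries (SD, n = 4), and to 91.7 ± 49.1 TPM in WT CCl4 libraries (SD, n = 3), against 22.5 ± 8.29 TPM in WT mineral oil libraries (SD, n = 4). Type VI collagens summed to 12.7 ± 8.96 TPM in ΔEGFR CCl4 libraries against 1.75 ± 0.604 TPM in ΔEGFR mineral oil libraries, and to 13.1 ± 4.85 TPM in WT CCl4 libraries against 1.37 ± 0.908 TPM in WT mineral oil libraries. For both classes the CCl4 libraries lie above all mineral oil libraries of their genotype. Type IV collagens summed to 56.1 ± 27.1 TPM in ΔEGFR CCl4 libraries against 22.7 ± 9.9 TPM in ΔEGFR mineral oil libraries. In WT mice the type IV sum was 58.5 ± 45.4 TPM after CCl4 against 20.5 ± 4.91 TPM after mineral oil. There the lowest CCl4 library (23.7 TPM) lay under the highest mineral oil library (25.2 TPM), whereas the ΔEGFR groups did not overlap in TPM. On counts scaled to library size with TMM factors, the ΔEGFR groups overlapped for Col4a1 and Col4a2, the most abundant type IV chains. As shares of the collagen TPM, fibrillar collagens made up 12% to 33.1% in ΔEGFR CCl4 libraries and 17.3% to 21.1% in WT CCl4 libraries, against 4.9% to 6.32% in ΔEGFR mineral oil libraries and 2.86% to 9.75% in WT mineral oil libraries. Sums and shares over the members are descriptions without a test. More cells of a collagen-making type and more message per cell cannot be told apart in these bulk libraries.

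Among single genes, 5 collagens were called for CCl4 in ΔEGFR mice, 4 higher and 1 lower, and 10 in WT mice, all higher. In ΔEGFR mice the 5 are read against 4.15% of all tested genes, 1.77% higher and 2.38% lower. In WT mice the 10 are read against 12.5% of all tested genes called in either direction, 5.31% higher and 7.2% lower. With an unadjusted p under 0.05 there were 17 of 35 in ΔEGFR mice against 24.7% of all tested genes, and 21 of 35 in WT mice against 28.9%. The CPM of the groups, counts scaled to library size with TMM factors, did not overlap for 12 higher and 2 lower collagens in ΔEGFR mice, against 12.3% and 9.32% of all tested genes, and for 12 higher and 3 lower in WT mice, against 12.1% and 11.9%. By class, edgeR in ΔEGFR mice called 1 fibrillar collagen higher and 1 lower of 9 tested, 1 higher of 6 type IV, 2 higher of 6 type VI and none of 14 other collagens, of which 4 had an unadjusted p under 0.05 and DESeq2 called 1 higher and 1 lower. In WT mice it called 5 fibrillar collagens higher of 9 tested, 1 of 6 type IV, 3 of 6 type VI and 1 of 14 other collagens. The median log2 fold change in ΔEGFR mice was 2.01 over the 9 tested fibrillar collagens, 0.92 over type IV, 2.28 over type VI and 0.46 over the others, against -0.02 over all tested genes. In WT mice the medians were 2.93, 0.90, 2.88 and 0.20 in the same order of classes, against -0.03 over all tested genes. When libraries were left out, the count of called collagens and the share of all tested genes called both changed. The count for ΔEGFR mice is 0 without ΔEGFR CCl4 replicate 1, without ΔEGFR CCl4 replicate 2 or without ΔEGFR mineral oil replicate 4, where 0.556%, 0.417% and 0.529% of all tested genes were called. It is 8 without WT mineral oil replicate 1, against 11.9% of all tested genes. It is 1 without ΔEGFR CCl4 replicate 3 (0.712% of all tested genes) or ΔEGFR mineral oil replicate 2 (1.02%), 2 without ΔEGFR mineral oil replicate 1 (1.59%) and 3 without ΔEGFR mineral oil replicate 3 (5.31%). The count for WT mice is 5 without WT CCl4 replicate 3 (3.13% of all tested genes) or without WT mineral oil replicate 3 (6.01%).

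**Figure D2:**
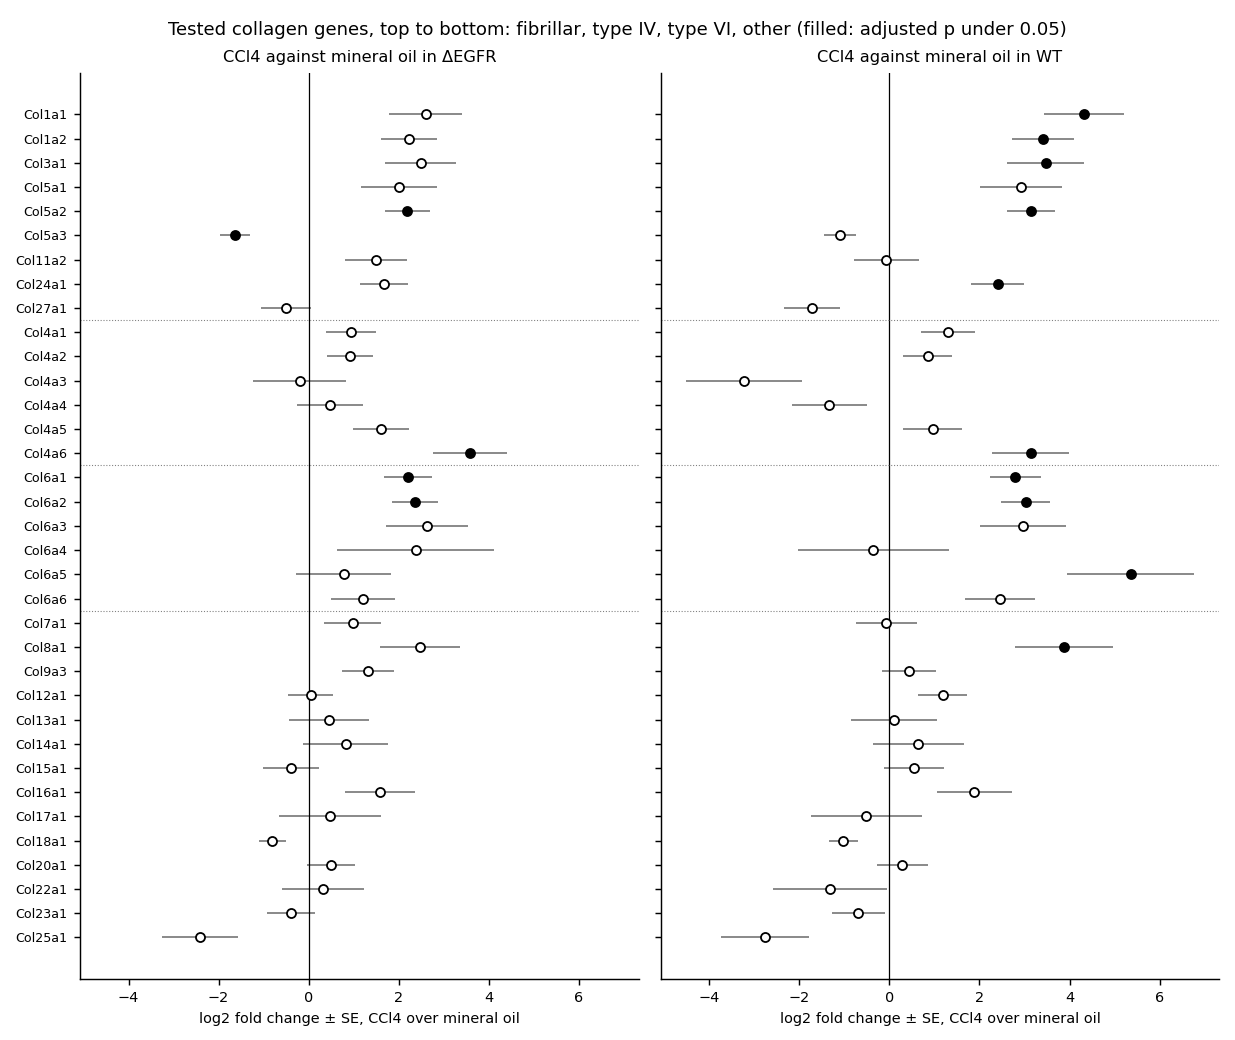
Log2 fold change of CCl4 over mineral oil for the 35 tested collagens in ΔEGFR mice (left) and WT mice (right), with bars of 1 standard error, filled points where the adjusted p was under 0.05 and dotted lines between the classes. The called genes number 5 in ΔEGFR mice and 10 in WT mice, and Col5a3 is the one filled point left of 0.

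Type I collagen, the main fibril collagen of scar tissue, is built from the chains of Col1a1 and Col1a2. Col1a1 stood at 11, 37.1, 5.45 and 6.17 TPM in ΔEGFR CCl4 libraries, against 1.36, 2.13, 1.92 and 0.79 TPM in ΔEGFR mineral oil libraries. WT libraries held 25.3, 8.93 and 9.72 TPM after CCl4, against 0.52, 0.08, 0.17 and 1.54 TPM after mineral oil. In both genotypes, for Col1a1, every CCl4 library lies above every mineral oil library. The log2 fold change was 2.60 ± 0.81 in ΔEGFR mice, which was not called (adjusted p = 0.0817), and 4.32 ± 0.90 in WT mice, where it rose (adjusted p = 0.0114). Col1a2 stood at 10.5, 38.5, 8.45 and 7.59 TPM in ΔEGFR CCl4 libraries, against 1.79, 3.78, 2.79 and 1.0 TPM in ΔEGFR mineral oil libraries. In WT mice Col1a2 stood at 26, 13.8 and 11.1 TPM after CCl4, against 1.42, 0.54, 0.44 and 2.58 TPM after mineral oil. It was not called in ΔEGFR mice (log2 fold change 2.23 ± 0.63, adjusted p = 0.0635) and rose in WT mice (3.41 ± 0.68, adjusted p = 0.0101). Col1a1 and Col1a2 were both called in ΔEGFR mice without a scaling factor, with DESeq2 and with limma on log2(TPM + 1) and log2(TPM + 0.1). With only the groups compared, both were called in ΔEGFR mice and lost their calls in WT mice, so the genotype that holds the call depends on the setting. Without WT mineral oil replicate 1 Col1a2 was called in ΔEGFR mice too. The log2 CPM of the 2 chains had a Pearson r of 0.984 over the 15 libraries, a description of libraries that share groups and depth. The ratio of Col1a1 to Col1a2 TPM ran from 0.645 to 1.05 in CCl4 libraries and from 0.148 to 0.79 in mineral oil libraries, and the 4 lowest ratios (0.148, 0.366, 0.386 and 0.563) came from mineral oil libraries. In expected counts, which leave the transcript length aside, it ran from 0.718 to 1.17 in CCl4 libraries and from 0.229 to 0.882 in mineral oil libraries.

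Type III collagen, the product of Col3a1, forms thin fibrils together with type I and had the highest mean level of the fibrillar collagens. Col3a1 stood at 32.5, 126, 22.9 and 28.7 TPM in ΔEGFR CCl4 libraries, against 5.29, 10.5, 5.15 and 2.18 TPM in ΔEGFR mineral oil libraries. In WT mice it stood at 63.0, 25.7 and 26.9 TPM after CCl4, against 3.02, 0.75, 0.83 and 5.66 TPM after mineral oil. Again no CCl4 library overlaps a mineral oil library of its genotype, and ΔEGFR CCl4 replicate 2 is far above the other libraries. Col3a1 was not called in ΔEGFR mice (log2 fold change 2.49 ± 0.79, adjusted p = 0.0887) and rose in WT mice (3.47 ± 0.86, adjusted p = 0.0217). In ΔEGFR mice it was called with DESeq2 and with limma on log2(TPM + 1) and log2(TPM + 0.1). The WT call is lost without WT CCl4 replicate 1 or 3 or without WT mineral oil replicate 2 or 3, and its highest adjusted p over all settings was 0.0746. Fitting only the groups compared and testing against a fold of 1.5 lost the WT call as well. A predicted gene, Gm47302, shares 141 exonic bases with Col3a1 on the same strand in the GENCODE M21 annotation, so reads in that stretch can belong to either.

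Promoter windows of Col1a2 and Col3a1 are shown because both genes varied with Col1a1 (Pearson r 0.984 for Col1a2 and 0.978 for Col3a1) and their windows hold different motifs. Each window is the RefSeq sequence from 250 bases before to 50 bases after a gene start in GRCm38.p6, written 5′ to 3′ on the gene's strand, with 3 motifs on either strand in capitals: the CCAAT box, the GC box GGGCGG, and the TATA box TATAAA. Col1a2 lies at chr6:4505368-4505667 (+) and Col3a1 at chr1:45311288-45311587 (+).
Col1a2: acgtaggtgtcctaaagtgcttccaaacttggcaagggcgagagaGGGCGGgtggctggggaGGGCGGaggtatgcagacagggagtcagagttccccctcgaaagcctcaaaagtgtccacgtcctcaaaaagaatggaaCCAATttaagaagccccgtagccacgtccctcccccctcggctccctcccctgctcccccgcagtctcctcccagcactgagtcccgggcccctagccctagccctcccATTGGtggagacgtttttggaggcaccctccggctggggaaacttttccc
Col3a1: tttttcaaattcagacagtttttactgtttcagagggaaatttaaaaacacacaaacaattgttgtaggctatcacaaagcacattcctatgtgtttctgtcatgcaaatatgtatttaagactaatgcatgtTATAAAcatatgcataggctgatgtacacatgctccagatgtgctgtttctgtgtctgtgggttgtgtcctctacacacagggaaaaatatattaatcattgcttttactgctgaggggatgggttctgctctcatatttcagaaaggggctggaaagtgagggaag
The Col1a2 window holds CCAAT at 2 places and GGGCGG at 2, and the Col3a1 window holds TATAAA at 1 place and neither of the others. Over the 38 windows that matched 35 collagen genes, CCAAT was found in 13, GGGCGG in 23, TATAAA in 5 and TGANTCA in 1. Over all 32851 promoter windows in the RefSeq table, CCAAT was found in 37.4%, GGGCGG in 35.7%, TATAAA in 13.6% and TGANTCA in 7.81%. The motifs were searched on both strands, no 2 matches share a base in the windows printed here, and a match is a description of the sequence only.

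Type V collagen is incorporated into type I fibrils and limits their width, and of its 3 genes 2 had positive and 1 had negative fold changes in both genotypes. Col5a2 stood at 2.29, 7.98, 1.58 and 2.36 TPM in ΔEGFR CCl4 libraries, against 0.53, 0.58, 0.38 and 0.35 TPM in ΔEGFR mineral oil libraries. WT libraries held 6.18, 2.29 and 2.42 TPM after CCl4, against 0.37, 0.17, 0.23 and 0.32 TPM after mineral oil. Its groups are far apart in both genotypes, and Col5a2 rose both in ΔEGFR mice (log2 fold change 2.19 ± 0.49, adjusted p = 0.0339) and in WT mice (3.15 ± 0.53, adjusted p = 0.00549), the lowest adjusted p of any collagen in WT mice. The ΔEGFR call is lost without any of ΔEGFR CCl4 replicates 1, 2 and 3 or ΔEGFR mineral oil replicates 2, 3 and 4, and its highest adjusted p over all settings was 0.111. Col5a1 ran from 2.22 to 12.2 TPM in ΔEGFR CCl4 libraries against 0.23 to 1.6 TPM in ΔEGFR mineral oil libraries, and from 1.8 to 15.3 TPM in WT CCl4 libraries against 0.26 to 1.33 TPM in WT mineral oil libraries. It was called in neither genotype, with a log2 fold change of 2.01 ± 0.85 in ΔEGFR mice (adjusted p = 0.166) and 2.93 ± 0.91 in WT mice (adjusted p = 0.0514).

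Col5a3, the remaining gene of type V, was the one collagen called lower. It stood at 2.48, 3.57, 4.94 and 3.7 TPM in ΔEGFR CCl4 libraries, against 4.56, 7.29, 9.62 and 10.7 TPM in ΔEGFR mineral oil libraries. In WT mice it stood at 7.64, 5.51 and 4.48 TPM after CCl4, against 6.45, 6.36, 11.1 and 12.6 TPM after mineral oil. Most CCl4 values are lower, yet the groups overlap in TPM in both genotypes, while the CPM values do not overlap in either. Col5a3 fell in ΔEGFR mice (log2 fold change -1.64 ± 0.33, adjusted p = 0.0229) and was not called in WT mice (-1.10 ± 0.35, adjusted p = 0.059). The fall is not called without ΔEGFR CCl4 replicate 1 or 2 or ΔEGFR mineral oil replicate 4, where the highest adjusted p over all settings was 0.085, and its sign was negative under every setting tried. In WT mice Col5a3 was called lower with DESeq2, with a term for the depth range, and without WT CCl4 replicate 1, WT mineral oil replicate 1 or ΔEGFR mineral oil replicate 4. The ratio of Col5a3 to Col5a2 TPM was 0.447 to 3.13 in ΔEGFR CCl4 libraries and 1.24 to 2.41 in WT CCl4 libraries, against 8.6 to 30.7 in ΔEGFR mineral oil libraries and 17.4 to 48.3 in WT mineral oil libraries. In mineral oil libraries Col5a3 was thus the most abundant type V message, and in ΔEGFR CCl4 replicate 2 Col5a2 exceeded it.

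The remaining fibrillar collagens were less abundant or were not called. Col24a1, a minor fibrillar collagen known from developing bone, stood at 0.06 to 0.18 TPM in ΔEGFR CCl4 libraries against 0.01 to 0.06 TPM in ΔEGFR mineral oil libraries, and at 0.14 to 0.24 TPM in WT CCl4 libraries against 0 to 0.04 TPM in WT mineral oil libraries. It was not called in ΔEGFR mice (log2 fold change 1.67 ± 0.54, adjusted p = 0.0915) and rose in WT mice (2.41 ± 0.59, adjusted p = 0.0207). In ΔEGFR mice it was called without a scaling factor, with DESeq2 and without WT mineral oil replicate 1. Its counts in WT mineral oil libraries were 28, 1, 4 and 4, so the WT fold rests on few reads. The WT call is lost without WT CCl4 replicate 2 or 3 or WT mineral oil replicate 3. Fitting only the groups compared and testing against a fold of 1.5 lost it as well. Col27a1, another minor fibrillar collagen, had a log2 fold change of -0.51 ± 0.55 in ΔEGFR mice and -1.72 ± 0.62 in WT mice (adjusted p = 0.598 and 0.0881). Its highest level, 14.2 TPM, was that of WT mineral oil replicate 1, against 1.7 to 4.16 TPM in WT CCl4 libraries. Col11a2, known from cartilage, stood between 0.21 and 3.1 TPM in all libraries, and Col2a1 and Col11a1 reached at most 0.04 TPM.

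**Figure D3:**
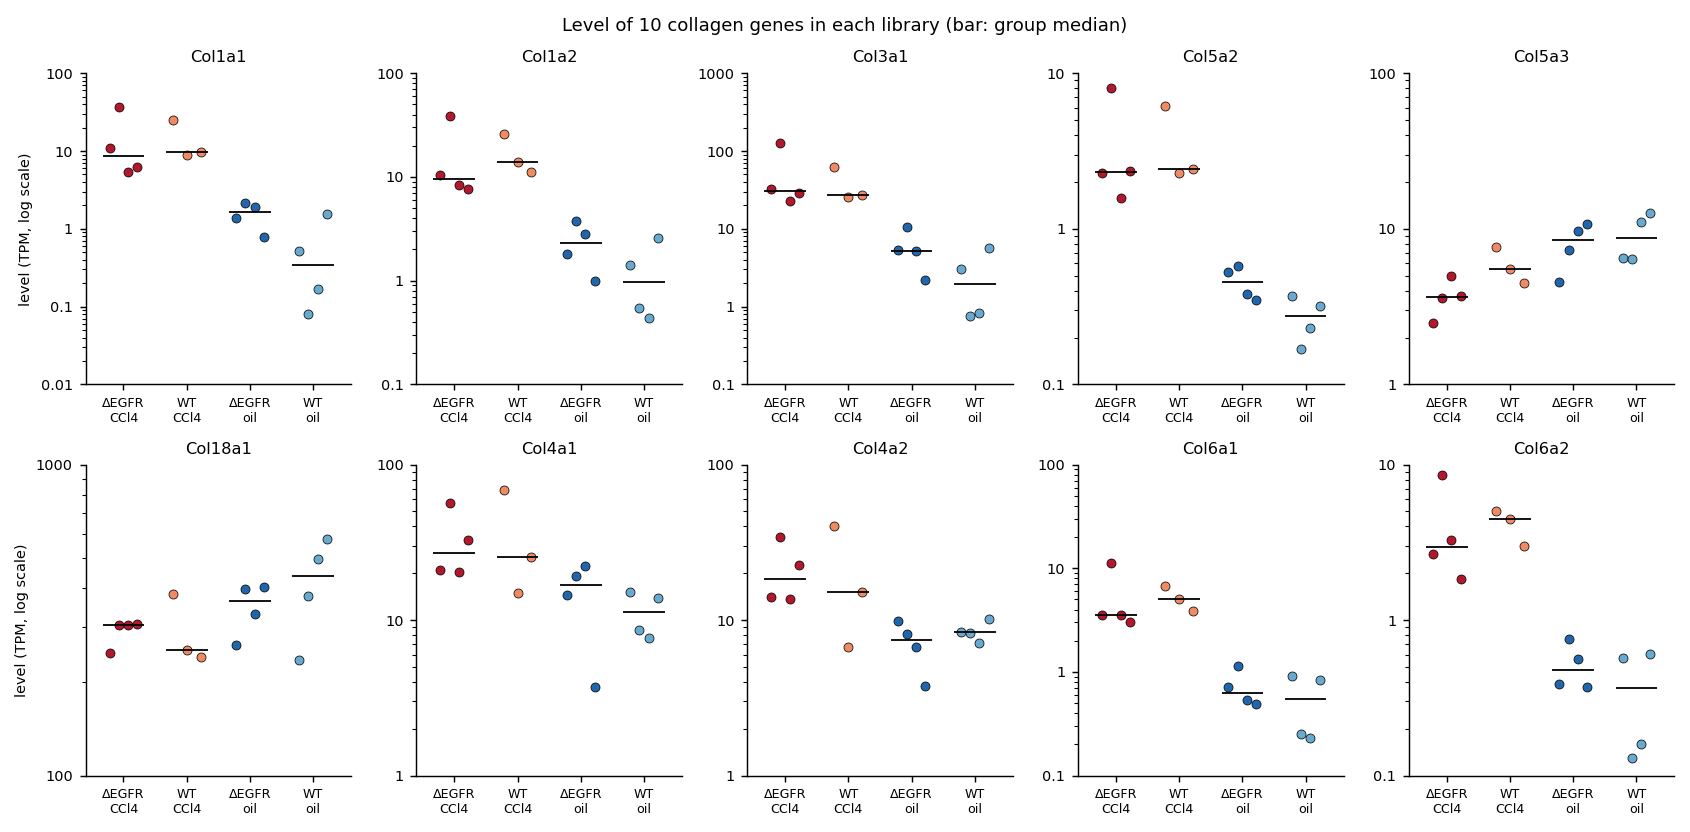
TPM (log scale) of 10 collagens, with 1 point per library and a bar at the group median. Col1a1, Col1a2, Col3a1, Col5a2, Col6a1 and Col6a2 lie higher in every CCl4 library than in any mineral oil library of the same genotype, whereas Col5a3 lies at 2.48 to 7.64 TPM in CCl4 libraries and 4.56 to 12.6 TPM in mineral oil libraries.

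Type VI collagen filaments are assembled from the chains of Col6a1, Col6a2 and Col6a3, and Col6a4, Col6a5 and Col6a6 encode chains that can stand in for the last of these. Col6a1 stood at 3.55, 11.2, 3.57 and 3.02 TPM in ΔEGFR CCl4 libraries, against 0.72, 1.14, 0.54 and 0.49 TPM in ΔEGFR mineral oil libraries. In WT mice Col6a1 stood at 6.69, 5.0 and 3.84 TPM after CCl4, against 0.92, 0.25, 0.23 and 0.84 TPM after mineral oil. It rose in ΔEGFR mice (log2 fold change 2.21 ± 0.53, adjusted p = 0.0403) and in WT mice (2.80 ± 0.57, adjusted p = 0.0102). Col6a2, its neighbour on chromosome 10, stood at 2.68, 8.56, 3.26 and 1.84 TPM in ΔEGFR CCl4 libraries, against 0.39, 0.76, 0.56 and 0.37 TPM in ΔEGFR mineral oil libraries. In WT mice Col6a2 stood at 5.02, 4.47 and 3.0 TPM after CCl4, against 0.57, 0.13, 0.16 and 0.61 TPM after mineral oil. It rose in ΔEGFR mice (2.35 ± 0.51, adjusted p = 0.03) and in WT mice (3.03 ± 0.54, adjusted p = 0.00638). No CCl4 library overlaps a mineral oil library of its genotype for either gene, and the pair kept a ratio of Col6a1 to Col6a2 TPM between 0.964 and 1.92 in all 15 libraries (Pearson r 0.99 of log2 CPM). Both ΔEGFR calls are lost without any of ΔEGFR CCl4 replicates 1, 2 and 3 or ΔEGFR mineral oil replicates 1, 2 and 4, and that of Col6a1 also without ΔEGFR mineral oil replicate 3 or WT CCl4 replicate 2. The highest adjusted p over all settings was 0.129 for Col6a1 and 0.099 for Col6a2.

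Col6a3 had a log2 fold change of 2.63 ± 0.91 in ΔEGFR mice (adjusted p = 0.108) and 2.97 ± 0.96 in WT mice (adjusted p = 0.0582), and was called in neither. Its level was 1.14 to 5.92 TPM in ΔEGFR CCl4 libraries against 0.06 to 0.58 TPM in ΔEGFR mineral oil libraries, and 0.45 to 5.37 TPM in WT CCl4 libraries against 0.05 to 0.34 TPM in WT mineral oil libraries. The spread within WT CCl4 was wider than for Col6a1, with a ratio of Col6a1 to Col6a3 TPM of 11.1 in WT CCl4 replicate 2 and of 1.25 and 1.92 in replicates 1 and 3, which in expected counts is 6.46 against 0.713 and 1.05. Of the alternative chains, Col6a5 stood at 0.02, 0.13, 0.31 and 0.03 TPM in ΔEGFR CCl4 libraries against 0, 0, 0.09 and 0.14 TPM in ΔEGFR mineral oil libraries. WT libraries held 0.37, 0.13 and 0.21 TPM after CCl4, against 0, 0, 0 and 0.04 TPM after mineral oil. Col6a5 was not called in ΔEGFR mice (log2 fold change 0.77 ± 1.05, adjusted p = 0.679) and rose in WT mice (5.36 ± 1.41, adjusted p = 0.0276). The WT mineral oil libraries held 3, 0, 0 and 2 counts of it, so the size of that fold depends on the prior count of the fit. The call is lost without any of the WT CCl4 replicates, without WT mineral oil replicate 2 or 3, and in the test against a fold of 1.5. Col6a6 was called in neither genotype (1.21 ± 0.71 in ΔEGFR mice and 2.46 ± 0.77 in WT mice, adjusted p = 0.306 and 0.053), and Col6a4 stood at or under 0.49 TPM in all libraries.

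Type IV chains are encoded in 3 head-to-head gene pairs, which are taken pair by pair. Col4a1 and Col4a2 encode the chains found in nearly all basement membranes. Col4a1 stood at 21.1, 56.4, 20.4 and 32.7 TPM in ΔEGFR CCl4 libraries, against 14.6, 19.2, 22.2 and 3.74 TPM in ΔEGFR mineral oil libraries. In WT mice it stood at 68.4, 14.9 and 25.6 TPM after CCl4, against 15.1, 8.69, 7.64 and 13.8 TPM after mineral oil. The ΔEGFR groups overlap, with replicates 1 and 3 after CCl4 under the highest mineral oil library, and so do the WT groups. Col4a1 was not called in ΔEGFR mice (log2 fold change 0.94 ± 0.56, adjusted p = 0.312) or in WT mice (1.3 ± 0.59, adjusted p = 0.168). Col4a2 stood at 14, 34.1, 13.6 and 22.5 TPM in ΔEGFR CCl4 libraries, against 9.93, 8.16, 6.75 and 3.75 TPM in ΔEGFR mineral oil libraries. In WT mice Col4a2 stood at 40.5, 6.68 and 15.2 TPM after CCl4, against 8.4, 8.3, 7.11 and 10.1 TPM after mineral oil. In ΔEGFR mice its groups do not overlap in TPM but overlap in CPM, and in WT mice they overlap in both. It was not called in ΔEGFR mice (0.91 ± 0.51, adjusted p = 0.284) or in WT mice (0.85 ± 0.55, adjusted p = 0.326), and in WT mice its sign turns without WT CCl4 replicate 1 (-0.24). The ratio of Col4a1 to Col4a2 TPM ran from 0.997 to 3.28 over the 15 libraries with a median of 1.51, and the 4 ΔEGFR CCl4 libraries lay between 1.45 and 1.65. The effective length that enters TPM differed between libraries by a factor of up to 1.73 for Col4a1 and 1.07 for Col4a2. In expected counts the ratio ran from 0.722 to 1.73, and the highest, that of ΔEGFR mineral oil replicate 3, is 1.73 in counts and 3.28 in TPM.

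The shared start region of Col4a1 and Col4a2 is shown because the genes are read from it in opposite directions and varied together (Pearson r 0.921 over the 15 libraries). Their RefSeq starts in GRCm38.p6 lie 21 bases apart and the windows, Col4a1 at chr8:11312777-11313076 (-) and Col4a2 at chr8:11312555-11312854 (+), share 78 bases.
Col4a1: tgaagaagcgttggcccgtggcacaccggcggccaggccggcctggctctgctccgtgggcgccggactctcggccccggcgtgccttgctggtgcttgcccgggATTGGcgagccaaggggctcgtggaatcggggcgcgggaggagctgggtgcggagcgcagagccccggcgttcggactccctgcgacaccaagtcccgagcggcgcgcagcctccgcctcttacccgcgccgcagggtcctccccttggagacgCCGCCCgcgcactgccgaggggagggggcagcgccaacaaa
Col4a2: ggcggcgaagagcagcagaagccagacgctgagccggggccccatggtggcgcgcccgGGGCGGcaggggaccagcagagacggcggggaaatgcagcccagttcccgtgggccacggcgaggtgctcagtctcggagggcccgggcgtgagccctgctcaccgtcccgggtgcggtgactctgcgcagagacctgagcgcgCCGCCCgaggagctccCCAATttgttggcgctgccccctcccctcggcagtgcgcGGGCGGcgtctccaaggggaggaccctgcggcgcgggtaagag
With CCAAT and GGGCGG on either strand in capitals, the Col4a1 window holds 1 of the first and 1 of the second, and the Col4a2 window holds 1 of the first and 3 of the second. The GGGCGG of the shared 78 bases appears as CCGCCC in the Col4a1 window. In GENCODE M21 the exons of the pair share 22 bases on opposite strands, and whether the counting used strand is not given in the sources used here, so reads there cannot be assigned to either gene with certainty.

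Col4a3 and Col4a4, the chains of the mature kidney filter, were barely detected. Col4a3 stood at 0.02, 0.05, 0.06 and 0.18 TPM in ΔEGFR CCl4 libraries against 0.09, 0, 0.01 and 0.16 TPM in ΔEGFR mineral oil libraries, and at 0.01, 0.01 and 0.05 TPM in WT CCl4 libraries against 0.18, 0.29, 0.05 and 0.09 TPM in WT mineral oil libraries. It was called in neither genotype, with a log2 fold change of -0.20 ± 1.04 in ΔEGFR mice (adjusted p = 0.922) and -3.23 ± 1.29 in WT mice (adjusted p = 0.117). An antisense gene, C430014B12Rik, shares 563 exonic bases with it. Col4a4 stood between 0.01 and 0.08 TPM in all libraries and had 0.47 ± 0.74 in ΔEGFR mice and -1.34 ± 0.83 in WT mice (adjusted p = 0.723 and 0.308).

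Col4a5 and Col4a6, the pair on the X chromosome, encode chains that join in the basement membranes of smooth muscle. Col4a5 stood at 1.2, 2.55, 1.63 and 3.1 TPM in ΔEGFR CCl4 libraries, against 0.18, 1.07, 0.31 and 0.44 TPM in ΔEGFR mineral oil libraries. WT libraries held 0.86, 1.8 and 1.03 TPM after CCl4, against 0.25, 0.25, 0.24 and 1.19 TPM after mineral oil. The ΔEGFR groups do not overlap in TPM but overlap in CPM, and the WT groups overlap in TPM through WT mineral oil replicate 4. Col4a5 was not called in ΔEGFR mice (log2 fold change 1.61 ± 0.62, adjusted p = 0.137) or in WT mice (0.96 ± 0.65, adjusted p = 0.359), and without WT mineral oil replicate 4 it was called in WT mice (adjusted p = 0.0364). With DESeq2 and with limma on log2(TPM + 1) and log2(TPM + 0.1) it was called in ΔEGFR mice. Col4a6 stood at 0.1, 0.21, 0.05 and 0.03 TPM in ΔEGFR CCl4 libraries against 0, 0.01, 0.01 and 0 TPM in ΔEGFR mineral oil libraries, and at 0.06, 0.22 and 0.07 TPM in WT CCl4 libraries against 0.01, 0.01, 0 and 0.03 TPM in WT mineral oil libraries. It rose in ΔEGFR mice (3.58 ± 0.83, adjusted p = 0.0362) and in WT mice (3.14 ± 0.86, adjusted p = 0.0317), the only type IV chain called. These folds rest on 1, 4, 6 and 2 counts in ΔEGFR mineral oil libraries and 5, 2, 0 and 6 in WT mineral oil libraries, and both calls are lost with limma on log2(TPM + 1). The ΔEGFR call is also lost without any of ΔEGFR CCl4 replicates 1, 2 and 3 or ΔEGFR mineral oil replicates 1, 2 and 4, and the WT call without WT CCl4 replicate 2 or 3 or WT mineral oil replicate 2 or 3. Testing against a fold of 1.5 and limma on log2(TPM + 0.1) lost both calls, and fitting only the groups compared lost the WT call.

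Col18a1, on the scaled counts, had a log2 fold change of -0.81 ± 0.30 in ΔEGFR mice (adjusted p = 0.123) and -1.03 ± 0.33 in WT mice (adjusted p = 0.0551), so it was called in neither, and its sign was negative under every setting tried. The size depends on the scaling: with no scaling at all, the median over tested genes was 0.44 in ΔEGFR mice and 0.40 in WT mice, and Col18a1 then lay below these medians. Over the 26 other settings its log2 fold change ran from -0.96 to -0.24 in ΔEGFR mice, where 2 settings called it, and from -1.36 to -0.48 in WT mice, where 5 did. Leaving out WT mineral oil replicate 1 called it lower in both genotypes (adjusted p = 0.0495 in ΔEGFR mice and 0.0105 in WT mice), and leaving out WT CCl4 replicate 1 called it in WT mice. Across the 15 libraries, log2 CPM of Col18a1 had a Pearson r of 0.885 with Col5a3 and of -0.65 with Col1a1, which describes libraries that share groups and depth. The windows of Col5a3, at chr9:20815018-20815317 (-), and of both Col18a1 starts, at chr10:77166481-77166780 (-) and chr10:77113656-77113955 (-), are shown because these were the 2 collagens of highest level with negative fold changes in both genotypes.
Col5a3: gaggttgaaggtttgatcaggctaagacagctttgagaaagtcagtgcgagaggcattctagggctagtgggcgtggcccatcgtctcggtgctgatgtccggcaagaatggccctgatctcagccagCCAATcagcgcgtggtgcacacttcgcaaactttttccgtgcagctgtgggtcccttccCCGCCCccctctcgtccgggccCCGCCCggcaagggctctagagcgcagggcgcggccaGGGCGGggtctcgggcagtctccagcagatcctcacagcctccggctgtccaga
Col18a1 start 1: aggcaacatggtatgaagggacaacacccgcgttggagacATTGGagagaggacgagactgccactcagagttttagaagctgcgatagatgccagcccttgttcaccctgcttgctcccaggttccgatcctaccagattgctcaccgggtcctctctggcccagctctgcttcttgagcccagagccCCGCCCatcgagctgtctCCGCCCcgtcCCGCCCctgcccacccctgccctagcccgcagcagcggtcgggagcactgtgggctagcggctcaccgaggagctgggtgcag
Col18a1 start 2: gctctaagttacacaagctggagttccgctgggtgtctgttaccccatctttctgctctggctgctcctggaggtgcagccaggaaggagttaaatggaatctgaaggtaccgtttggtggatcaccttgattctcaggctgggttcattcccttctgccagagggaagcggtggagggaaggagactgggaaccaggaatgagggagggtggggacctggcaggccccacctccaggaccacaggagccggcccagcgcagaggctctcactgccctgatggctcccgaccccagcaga
With the same motifs in capitals, the Col5a3 window holds CCAAT at 1 place and GGGCGG at 3 places, the first Col18a1 window likewise, and the second Col18a1 window neither. The deposited gene-level values do not separate the 2 starts. The effective length of Col18a1 varied by a factor of 1.03 between libraries, while that of Col3a1 varied by 1.63, that of Col6a3 by 1.76 and that of Col6a5 by 7.27, so the TPM values of these 3 genes include a change of length that the tests on counts leave aside.

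Among the other collagens Col14a1, which coats the surface of fibrils, was the most abundant after Col18a1. It stood at 9.26, 27.9, 5.09 and 8.16 TPM in ΔEGFR CCl4 libraries, against 4.8, 12.6, 0.63 and 1.15 TPM in ΔEGFR mineral oil libraries. In WT mice it stood at 18.8, 1.5 and 7.21 TPM after CCl4, against 7.36, 1.34, 1.33 and 6.79 TPM after mineral oil. The groups overlap in both genotypes, and Col14a1 was not called in ΔEGFR mice (log2 fold change 0.82 ± 0.94, adjusted p = 0.619) or in WT mice (0.65 ± 1.01, adjusted p = 0.709), where its sign turns without WT CCl4 replicate 1 (-0.56). Col8a1, a short-chain collagen of vessel walls, stood at 0.11, 0.24, 0.05 and 0.14 TPM in ΔEGFR CCl4 libraries against 0.02, 0.02, 0.01 and 0.01 TPM in ΔEGFR mineral oil libraries, and at 0.25, 0.02 and 0.07 TPM in WT CCl4 libraries against 0.01, 0.01, 0 and 0 TPM in WT mineral oil libraries. It was not called in ΔEGFR mice (2.46 ± 0.89, adjusted p = 0.118) and rose in WT mice (3.88 ± 1.08, adjusted p = 0.0344) on 3, 3, 0 and 0 counts in the mineral oil libraries. That call is lost with limma on log2(TPM + 1) and without WT CCl4 replicate 1 or 3 or WT mineral oil replicate 3 or 4. Testing against a fold of 1.5 and limma on log2(TPM + 0.1) lost it as well. In ΔEGFR mice Col8a1 was called with DESeq2, with limma on log2(TPM + 0.1) and with only the groups compared. Col15a1, the relative of Col18a1 in the multiplexin family, stood between 1.65 and 13.5 TPM in all libraries and had -0.40 ± 0.62 in ΔEGFR mice and 0.55 ± 0.67 in WT mice. Col25a1, a membrane-bound collagen known from neurons, had -2.41 ± 0.84 in ΔEGFR mice and -2.76 ± 0.97 in WT mice (adjusted p = 0.11 and 0.0792) at levels of at most 0.39 TPM. The other tested genes of this class, Col7a1, Col9a3, Col12a1, Col13a1, Col16a1, Col17a1, Col20a1, Col22a1 and Col23a1, were called in neither genotype.

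The comparison of genotypes asked whether collagen message differed between ΔEGFR and WT mice, and no collagen was called, in a background of 0% of tested genes under CCl4, 0% in mineral oil and 0% for the interaction of genotype and treatment with edgeR. No collagen had CPM that did not overlap between genotypes, against 2.68% of all tested genes higher and 2.38% lower under CCl4, and 1.44% higher and 1.29% lower in mineral oil. With an unadjusted p under 0.05 there were 0 collagens under CCl4 against 2.29% of all tested genes, 3 in mineral oil against 6.66%, and 1 for the interaction against 3.16%. DESeq2 called no collagen in any of the 3, and over all genes it called 2 under CCl4, 0 in mineral oil and 2 for the interaction. Under CCl4 the log2 fold change of ΔEGFR over WT was -0.17 ± 0.82 for Col1a1, -0.22 ± 0.65 for Col1a2 and 0.18 ± 0.82 for Col3a1. It was -0.08 ± 0.55 for Col6a1, -0.21 ± 0.60 for Col4a1 and -0.01 ± 0.32 for Col18a1, and -0.68 ± 0.34 for Col5a3 (adjusted p = 1 for each of these 7 genes). The standard errors leave room for differences of well over 1 log2 unit in the fibrillar genes, so these values do not show that the genotypes are alike. In mineral oil the values were 1.56 ± 0.79 for Col1a1 (adjusted p = 0.713), 0.96 ± 0.61 for Col1a2 and 1.16 ± 0.77 for Col3a1 (adjusted p = 0.717 for both). The mineral oil groups overlap for each of these genes, Col1a1 for instance standing at 0.79 to 2.13 TPM in ΔEGFR libraries against 0.08 to 1.54 TPM in WT libraries.

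**Figure D4:**
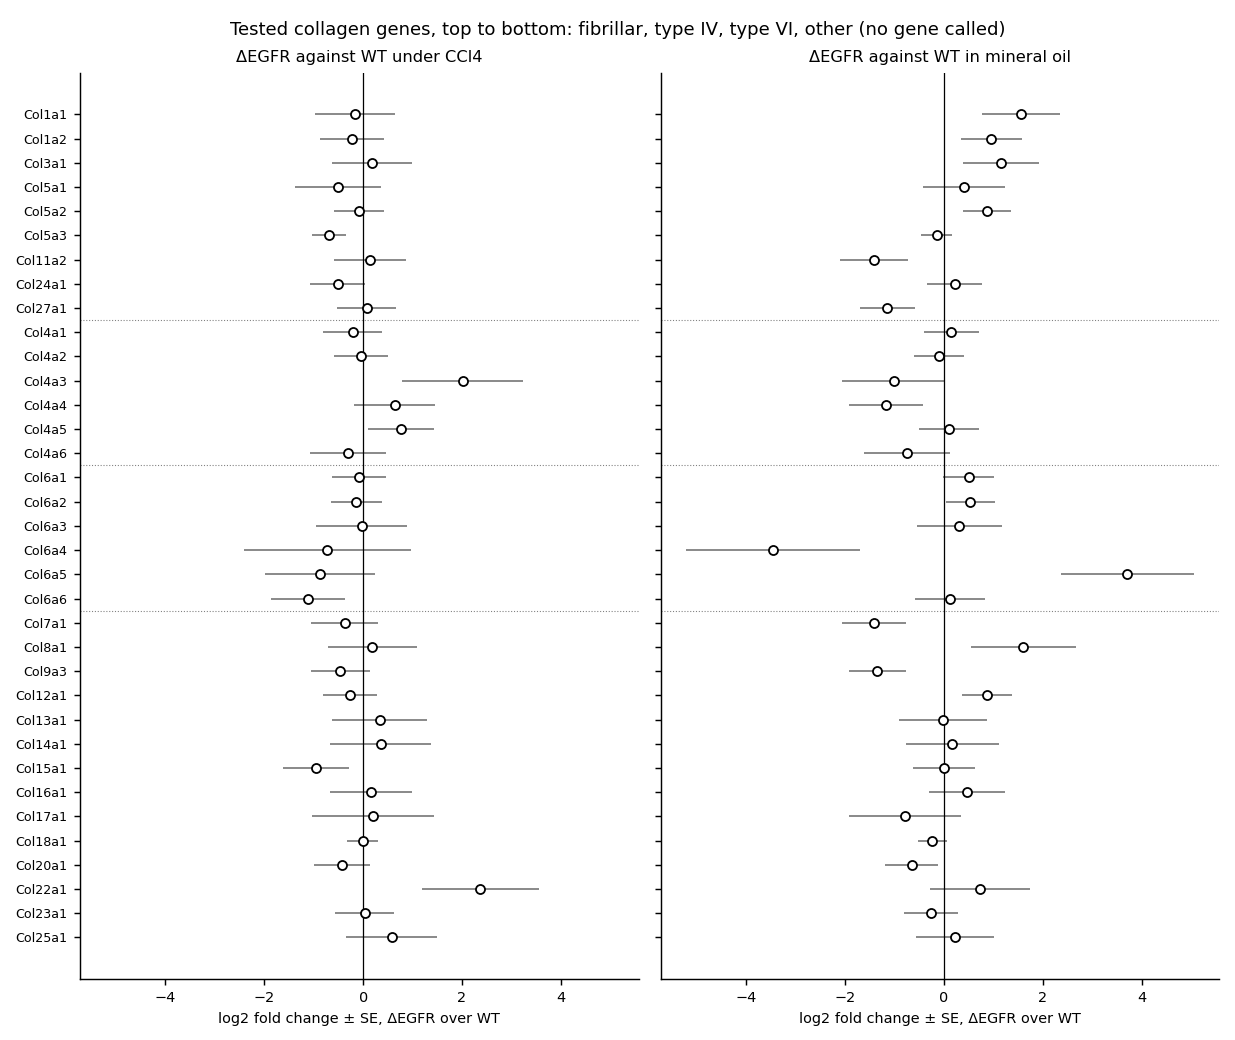
Log2 fold change of ΔEGFR over WT for the 35 tested collagens under CCl4 (left) and in mineral oil (right), with bars of 1 standard error and dotted lines between the classes. No collagen was called, and the type I and type III genes lie between -0.22 and 0.18 under CCl4 and between 0.96 and 1.56 in mineral oil.

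Called collagens were 5 in ΔEGFR mice and 10 in WT mice after CCl4, but the difference itself was tested as the interaction and passed for none. The interaction was -1.73 ± 1.12 for Col1a1, -1.18 ± 0.89 for Col1a2, -0.98 ± 1.11 for Col3a1, -0.96 ± 0.70 for Col5a2 and -0.54 ± 0.47 for Col5a3 (adjusted p = 1 for each of these 5 genes). Col6a5 was the gene with an unadjusted p under 0.05 (interaction -4.58 ± 1.74, adjusted p = 1), and it also had one for ΔEGFR over WT in mineral oil (3.71 ± 1.35, adjusted p = 0.713). Its level there was 0, 0, 0.09 and 0.14 TPM in ΔEGFR libraries against 0, 0, 0 and 0.04 TPM in WT libraries, so both values rest on few reads.

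Genes whose products modify, fold, process and bind collagen were followed as 6 lists. Their counts are read against shares of all tested genes. With edgeR these are 1.77% higher and 2.38% lower in ΔEGFR mice and 5.31% higher and 7.2% lower in WT mice, and at an unadjusted p under 0.05 they are 24.7% and 28.9%. DESeq2 called 7.5% higher and 6.19% lower in ΔEGFR mice, and 9.33% higher and 11.2% lower in WT mice. Of the enzymes that hydroxylate and glycosylate collagen chains, none of 14 tested was called in ΔEGFR mice with edgeR, where 6 had an unadjusted p under 0.05 and DESeq2 called 6 higher, and 5 rose and 1 fell in WT mice. Plod3, a lysyl hydroxylase, rose in WT mice (log2 fold change 0.79 ± 0.14, adjusted p = 0.00638), with 42.0, 43.8 and 57.4 TPM after CCl4 against 23.9, 16.5, 19.5 and 21.5 TPM after mineral oil. P3h4 (2.43 ± 0.46, adjusted p = 0.00769) and Crtap (1.33 ± 0.33, adjusted p = 0.0214), partners of collagen hydroxylases, rose too, and Colgalt2, which adds galactose to collagen, fell (-2.92 ± 0.71, adjusted p = 0.0208). Of the collagen chaperones and export factors, none of 12 was called in ΔEGFR mice with edgeR, where 5 had an unadjusted p under 0.05 and DESeq2 called 2 lower, and 2 rose and 2 fell in WT mice. Creb3l1, an activator of collagen genes that is kept in the endoplasmic reticulum, rose (2.85 ± 0.73, adjusted p = 0.0247), as did the chaperone Fkbp10 (3.22 ± 0.93, adjusted p = 0.0385), while the export factors Klhl12 (-0.61 ± 0.15, adjusted p = 0.0204) and Mia2 (-0.70 ± 0.20, adjusted p = 0.0366) fell. With edgeR none of the 8 tested procollagen proteases and enhancers was called in either genotype, with 0 in ΔEGFR mice and 1 in WT mice at an unadjusted p under 0.05 and DESeq2 calls of 0 and of 1 lower. None of the 8 tested collagen receptors was called either, with 2 in each genotype at an unadjusted p under 0.05 and DESeq2 calls of 1 higher in ΔEGFR mice and 2 higher in WT mice. Of 13 tested proteoglycans and glycoproteins that bind fibrils, Fmod, which binds type I fibrils, rose in ΔEGFR mice (4.45 ± 1.01, adjusted p = 0.0349) and in WT mice (5.12 ± 1.08, adjusted p = 0.0116), at no more than 0.25 TPM. Of 16 other basement membrane proteins, edgeR called 1 higher in ΔEGFR mice, and 2 higher and 1 lower in WT mice. The laminin chain gene Lamc3 rose in ΔEGFR mice (2.91 ± 0.61, adjusted p = 0.0265) and in WT mice (3.09 ± 0.65, adjusted p = 0.0115), and in WT mice Lama3, another laminin chain gene, fell (-2.66 ± 0.40, adjusted p = 0.00382). The median log2 fold change of these 6 lists ran from -0.08 to 1.21 in ΔEGFR mice, against -0.02 over all tested genes, and from 0.24 to 1.22 in WT mice, against -0.03.

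Markers of cells other than hepatocytes differed in how they stood beside the collagens. Most mesothelial markers rose in both genotypes. Myofibroblast and macrophage sums were higher in every CCl4 library than in any mineral oil library of its genotype. The same held for sinusoidal endothelial and portal fibroblast sums in ΔEGFR mice. Sinusoidal endothelial sums stood there at 257 to 548 TPM after CCl4 against 51.3 to 193 TPM, and portal fibroblast sums at 33.9 to 72.7 TPM against 4.24 to 20.1 TPM. Without Thy1, Pi16 and Gsn the ΔEGFR sums of the 9 other portal fibroblast markers overlapped. They were 9.38 to 36.3 TPM after CCl4 against 3.55 to 14.1 TPM after mineral oil. In WT mice the full sinusoidal endothelial and portal fibroblast sums overlapped through WT mineral oil replicate 1. There they stood at 211 to 371 TPM against 42.3 to 511 TPM, and at 37.1 to 78.1 TPM against 3.45 to 87 TPM. No sinusoidal endothelial marker was called by edgeR. Counts of calls for these lists are read against the same shares of all tested genes as the pathway lists above. Summed myofibroblast markers stood at 48.5 to 73.4 TPM in ΔEGFR CCl4 libraries against 9.41 to 33 TPM in ΔEGFR mineral oil libraries, and at 48.2 to 113 TPM in WT CCl4 libraries against 3.57 to 25.4 TPM in WT mineral oil libraries. Spon2 made up 12.3% to 78.7% of this sum, and without it the sums were 18.3 to 64.3 TPM in ΔEGFR CCl4 libraries against 4.96 to 10.3 TPM in ΔEGFR mineral oil libraries, and 17 to 94.1 TPM in WT CCl4 libraries against 1.48 to 8.91 TPM in WT mineral oil libraries. Of 11 tested myofibroblast markers, edgeR called 0 in ΔEGFR mice, with 5 at an unadjusted p under 0.05 and 4 called higher by DESeq2. In WT mice 6 rose, with 9 at an unadjusted p under 0.05 and 8 called higher by DESeq2. Acta2, the actin of contractile cells, was 0.82 to 3.14 TPM in ΔEGFR CCl4 libraries against 0.05 to 0.36 TPM in ΔEGFR mineral oil libraries, and 1.38 to 13.4 TPM in WT CCl4 libraries against 0 to 2.02 TPM in WT mineral oil libraries. Cthrc1 and Mfap5 of this list, and Mfap4 of the portal fibroblast list, were at 0 in all WT mineral oil libraries, and Actg2 in all ΔEGFR mineral oil libraries. Of 6 mesothelial markers 5 rose in ΔEGFR mice and 6 in WT mice, with low sums of 1.27 to 7.14 TPM in ΔEGFR CCl4 libraries against 0.13 to 0.99 TPM in ΔEGFR mineral oil libraries and of 4.71 to 9.57 TPM in WT CCl4 libraries against 0.05 to 0.3 TPM in WT mineral oil libraries. Macrophage markers summed to 2310 to 7330 TPM in ΔEGFR CCl4 libraries against 37.0 to 999 TPM in ΔEGFR mineral oil libraries, and to 2410 to 8420 TPM in WT CCl4 libraries against 85.4 to 1520 TPM in WT mineral oil libraries. With edgeR 2 of 15 rose in ΔEGFR mice and 4 in WT mice. At an unadjusted p under 0.05 there were 10 in ΔEGFR mice and 8 in WT mice, and DESeq2 called 9 and 7 higher.

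Stellate cell marker sums overlapped between treatments, at 166 to 429 TPM in ΔEGFR CCl4 libraries against 87.8 to 301 TPM in ΔEGFR mineral oil libraries, and at 153 to 302 TPM in WT CCl4 libraries against 136 to 336 TPM in WT mineral oil libraries. One gene, Steap4, made up 26% to 35.3% of the sum in CCl4 libraries and 52.1% to 92.2% in mineral oil libraries. Without Steap4 the sums had a median of 134 TPM (112 to 317) in ΔEGFR CCl4 libraries against 55.9 TPM (21.3 to 136) in ΔEGFR mineral oil libraries, and of 152 TPM (99.1 to 212) in WT CCl4 libraries against 53.1 TPM (25.3 to 130) in WT mineral oil libraries. The groups still overlap, but the medians of the ΔEGFR groups change order, since with Steap4 they are 188 and 225 TPM. Of 17 tested with edgeR, none rose and Steap4 fell in both genotypes, while DESeq2 called 1 higher in ΔEGFR mice and 2 in WT mice. At an unadjusted p under 0.05 there were 3 of 17 stellate markers in ΔEGFR mice, against 24.7% of all tested genes, and 5 of 17 in WT mice, against 28.9%. All 18 stellate markers were above 0 in every library. In ΔEGFR mice edgeR called 0 of 10 portal fibroblast, 0 of 14 sinusoidal endothelial, 0 of 10 cholangiocyte and 0 of 9 hepatocyte markers. At an unadjusted p under 0.05 these lists held 6, 1, 4 and 4 markers in that order, and DESeq2 called 4, 1 and 3 higher in the first 3 and 4 lower in the last. In WT mice edgeR called 2 portal fibroblast markers higher, 2 cholangiocyte markers higher, 3 hepatocyte markers lower and 0 sinusoidal endothelial markers. At an unadjusted p under 0.05 these lists held 6, 3, 5 and 0 markers in that order. DESeq2 called 6 portal fibroblast and 3 cholangiocyte markers higher, 4 hepatocyte markers lower and 0 sinusoidal endothelial markers. Vwf of the 8 vascular endothelial markers rose in both genotypes. ΔEGFR CCl4 replicate 2, the highest library for Col1a1, Col1a2, Col3a1, Col5a2, Col6a1 and Col6a2, also had the highest stellate sum (429 TPM), sinusoidal endothelial sum (548 TPM) and vascular endothelial sum (112 TPM) of all libraries. WT CCl4 replicate 1, the highest for Col4a1 and Col4a2, had the highest myofibroblast sum (113 TPM). WT mineral oil replicate 1 stood apart in its group with a portal fibroblast sum of 87.0 TPM, against 3.45 to 19.5 TPM in the other 3 libraries, and a sinusoidal endothelial sum of 511 TPM, against 42.3 to 163 TPM. Thy1 (49.0 TPM), Pi16 (18.1 TPM) and Gsn (17 TPM) made up 96.6% of that portal fibroblast sum, and the 9 other markers of the list summed to 2.97 TPM, against 2.67 to 15.2 TPM in the other 3 libraries. Without ΔEGFR CCl4 replicate 2 no collagen was called in ΔEGFR mice, where 0.417% of all tested genes were. Without WT mineral oil replicate 1 the counts were 8 in ΔEGFR mice and 14 in WT mice, against 11.9% and 28.4% of all tested genes. The part of these other cells in the collagen values was not tested.

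**Figure D5:**
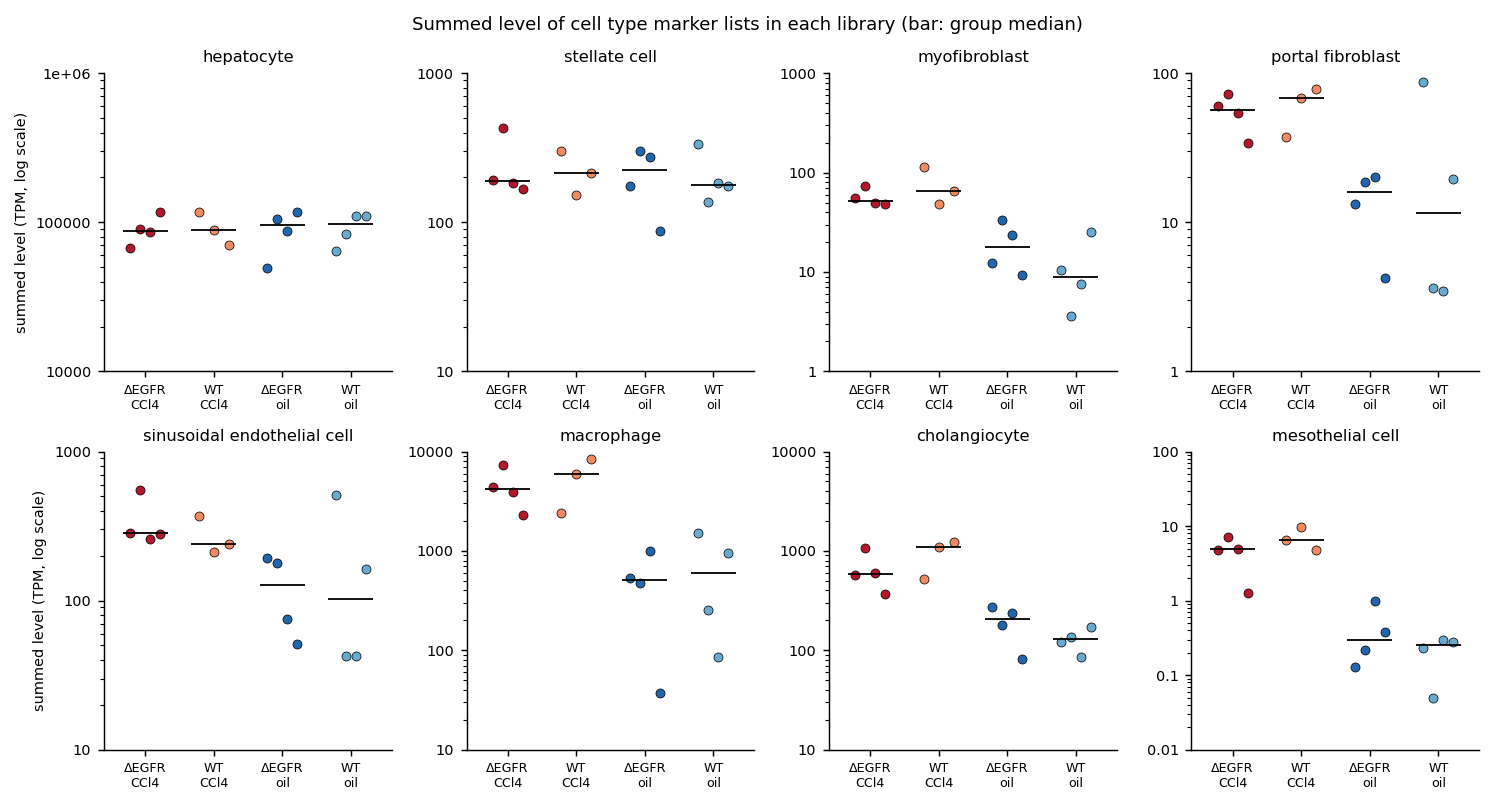
Summed TPM (log scale) of 8 cell type marker lists, with 1 point per library and a bar at the group median. Macrophage, myofibroblast, cholangiocyte and mesothelial sums do not overlap between CCl4 and mineral oil libraries, and stellate cell and hepatocyte sums do. Portal fibroblast and sinusoidal endothelial sums overlap between treatments in WT mice only. Spp1 made up 49.4% to 87.1% of the cholangiocyte sum in CCl4 libraries, and without it the ΔEGFR groups overlap, at 93.5 to 290 TPM after CCl4 against 77.2 to 180 TPM after mineral oil.

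The genes whose log2 CPM followed Col1a1 most closely over the 15 libraries were Col1a2 (Pearson r 0.984), Loxl1 (0.98), Col3a1 (0.978), Eln (0.965) and Aebp1 (0.957). Loxl1 is a lysyl oxidase-like enzyme, Eln encodes elastin and Aebp1 encodes a collagen-binding protein. Those nearest to Col4a1 were Nfatc4 (0.928), Col4a2 (0.921), Ajap1 (0.915), Spats2 (0.91) and Notch3 (0.907), of which Notch3 is a receptor of mural cells. Nfatc4, Ajap1 and Notch3 stood near the floor, with group means of 0.02 to 0.258, 0.01 to 0.103 and 0.035 to 0.3 TPM. The correlations are descriptions over libraries that share groups, depth and cell makeup.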

How the data were processed

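Expected counts and TPM per gene were deposited by the authors in 1 file per library, from RSEM 1.3.0 on STAR 2.7.8a alignments to GRCm39, per the submitters' processing notes. Per the labels' protocols, the library kit keeps strand and selects mRNA. Which annotation release RSEM used, and whether it used strand, is not given in the sources used here. Both deposited units, the expected counts and the TPM, come without molecular identifiers, so their precision is limited by read counting and library making. Gene names were joined by Ensembl ID from a GRCm38 annotation table (52029 of 56953 IDs, 91.4%).

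After rounding to whole numbers, expected counts entered edgeR 4.0.16 (R 4.3.3). Genes were kept by filterByExpr (minimum count 10, minimum total 15, by group), scaled with TMM, and fitted by robust quasi-likelihood with 1 mean per group over all 15 libraries. Adjustment was by Benjamini-Hochberg over 17975 genes, called under 0.05. The biological coefficient of variation was 50.9%. Correlations used log2 CPM with a prior count of 2. Levels, sums, shares and chain ratios are in TPM as deposited, without TMM. The fit was also run on simulated data, with an outcome that is not reported here. Changes were simulated only in genes above a set count level, so that run does not cover collagens with few counts.

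Total counts fall in 2 ranges, 51.73 to 61.89 M (mega) and 96.17 to 155.39 M, whose origin the labels do not give. All ΔEGFR mineral oil libraries lie in the upper range (98.63 to 140.61 M). WT mineral oil replicates 2, 3 and 4 lie in the lower range (56.89 to 61.89 M), so depth goes in part with genotype in mineral oil. WT CCl4 and ΔEGFR CCl4 libraries each fall in both ranges. Replicate numbers follow deposit order and pair no libraries. Named genes were the collagens called in any comparison, the 2 with the highest mean TPM of each class, all type IV chains, up to 4 called members per pathway list with the lowest adjusted p, and the first 2 members of each marker list with any at 0. A selection is printed, and Col5a1, Col6a3, Col6a4, Col6a6, Col11a2, Col15a1, Col25a1 and Col27a1 were added after their values were seen. The hepatocyte marker Tf matched no named ID. The collagens, their classes and the lists were chosen with earlier results of these data known, and leaving Col18a1 out of a sum was chosen after seeing its level. Alternatives were no low-count filter, at least 1 CPM in 3 libraries, RLE and upper-quartile factors, no scaling, DESeq2 1.42.0, limma 3.58.1 on log2(TPM + 1) and log2(TPM + 0.1), a test against a fold of 1.5, a fit restricted to the groups compared, each library left out in turn, and, added later, a term for the depth range. Promoter sequences are RefSeq, GRCm38.p6. As an exception to the rule for pathway lists, the values of 1 called gene among the basement membrane proteins are not reported here. Marker sums without their leading gene and chain ratios in counts were added after the values were seen.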

Additional observations from a re-analysis of the deposited data

Results flagged for a closer look

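Of 72 sets of 4 libraries, 11 held a library far from the other 3 by Dixon's ratio of gap to range. The cut-off flags about 1 in 20 sets of normally distributed values. These TPM values were not log-transformed and some are rounded and tied, so that rate need not hold here. In 7 of them ΔEGFR CCl4 replicate 2 was the high library: Col3a1 stood at 126 TPM with the next at 32.5, Col1a2 at 38.5 TPM with the next at 10.5, Col5a2 at 7.98 TPM with the next at 2.36, and Col6a1 at 11.2 TPM with the next at 3.57. The same library had the highest sums of fibrillar collagens (234 TPM, next 68.2), of type VI collagens (26 TPM, next 8.88) and of collagens other than Col18a1 (400 TPM, next 140). These sets share genes and are not independent of each other. Without that library edgeR called no collagen for CCl4 in ΔEGFR mice and 0.417% of all tested genes, against 5 collagens and 4.15% with it.

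In ΔEGFR CCl4 replicate 1, Col18a1 was low at 248 TPM with the nearest at 304. In WT mineral oil replicate 4, Col4a5 stood at 1.19 TPM with the next at 0.25, and Col6a5 at 0.04 TPM with the other 3 libraries at 0. In ΔEGFR mineral oil replicate 2, Col4a4 stood at 0.01 TPM with the other 3 libraries at 0.02, a gap the rounding of the deposited values can give.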

How the results depend on the processing

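For CCl4 in ΔEGFR mice the count of called collagens was 5. It was 0 in a test against a fold of 1.5, 8 without a scaling factor, 8 with only the groups compared, 13 with DESeq2 (11 higher, 2 lower), 10 with limma on log2(TPM + 1), 13 with limma on log2(TPM + 0.1), 4 or 5 under the other 4 settings, and 0 to 8 when each library was left out. Of all tested genes 4.15% were called, 0.467% in the test against a fold, 13.7% with DESeq2, and 0.417% to 11.9% over the left-out libraries. The share was 6.56% without a scaling factor and 7.57% with only the groups compared. With limma on log2(TPM + 1) and log2(TPM + 0.1) it was 12.6% and 12.7%, and under the other 4 settings 1.51% to 4.84%. For CCl4 in WT mice the count was 10. It was 5 in a test against a fold of 1.5 (2.9% of all tested genes) and 3 with only the groups compared (3.33%). With DESeq2 it was 18 (13 higher, 5 lower), against 20.6% of all tested genes. Under the other 7 settings it was 8 to 13, against 4.69% to 17.9%. The main share was 12.5%. When each library was left out in turn the count was 5 to 14, where 3.13% to 28.4% of all tested genes were called. Col5a2 and Col6a2 were called in WT mice under every setting, with adjusted p of at most 0.0358 and 0.0484. The WT calls of Col1a1, Col1a2, Col3a1, Col4a6, Col6a1 and Col24a1 were lost with only the groups compared. Those of Col3a1, Col4a6, Col6a5, Col8a1 and Col24a1 were lost in the test against a fold of 1.5. A term for the depth range, chosen after seeing the data, gave 6 in ΔEGFR mice (4 higher, 2 lower) and 12 in WT mice (10 higher, 2 lower). With that term 9.14% and 12.9% of all tested genes were called. The genotype comparisons and the interaction gave 0 collagens under every setting. With types XV and XVIII counted as basement membrane, that class held 74.7% of the collagen TPM in ΔEGFR CCl4 libraries, 75.7% in WT CCl4, 92.0% in ΔEGFR mineral oil and 92.5% in WT mineral oil.

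In the comparisons of CCl4 with mineral oil, signs turned only for genes that were not called there. In WT mice, leaving out WT CCl4 replicate 1 gave -0.24 for Col4a2 and -0.56 for Col14a1, and the highest values over left-out libraries were 1.26 and 1.14. In ΔEGFR mice Col4a3 turned to 0.30 without a scaling factor, 0.017 and 0.14 with limma on log2(TPM + 1) and log2(TPM + 0.1), 0.13 and 0.51 without ΔEGFR mineral oil replicates 1 and 4, and 0.14 and 0.02 without ΔEGFR CCl4 replicates 1 and 2, with a lowest value of -1.40 over left-out libraries. Col4a4 turned to -0.15 without ΔEGFR CCl4 replicate 4, with a highest value of 0.90. The causes were not tested. With limma on log2(TPM + 1) and log2(TPM + 0.1) the median of all tested genes was 0.31 and 0.48 in ΔEGFR mice and 0.28 and 0.48 in WT mice, so their folds include that shift. Of the other values of named genes in the comparisons of CCl4 with mineral oil, 805 kept direction and call, 71 lost the call and 39 gained it. The genotype and interaction values are not in these counts. Under CCl4 the sign of ΔEGFR over WT turned in 4 of 26 settings for Col1a1, 5 for Col6a1, 9 for Col18a1 and 0 for Col5a3. The values of Col4a6, Col6a5, Col8a1 and Col24a1 rest on few counts in mineral oil libraries, which limits their folds. No paired analysis was possible because the labels carry no replicate numbers.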
